A study of Mus musculus with 6 samples.

Results

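The 10 genes followed here are read as signs of an epithelial or a mesenchymal state, and were measured in D2A1 tumor spheroids given rSLURP1 (recombinant SLURP1) or the control protein rGST (recombinant GST). They were Cdh1, Cdh2, Epcam, Vim, Zeb1, Zeb2, Snai1, Snai2, Twist1 and Prrx1, chosen by name, and all 10 were found among the 54146 genes of the table. In these spheroids the mesenchymal filament gene Vim and most of the EMT factors were expressed, whereas Cdh1, Epcam and Cdh2 were at or close to 0. In the values as deposited, Vim, Twist1 and Prrx1 were each about 2-fold lower with rSLURP1. Snai1, Zeb1 and Zeb2 were lower by a smaller amount, close to the shift of all genes. With that shift subtracted, the log2 fold changes of Vim, Twist1 and Prrx1 were -0.59, -0.71 and -0.94.

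D2A1 is a mouse mammary tumor cell line, and 3 libraries of each treatment were sequenced from cells grown in 3D Matrigel in DMEM with 10% FBS. The labels give 50 nM for both proteins, and the methods of the study give harvest on day 5. GST, an enzyme widely used as a fusion tag, served as the control, and the comparison asks how added SLURP1 changes expression in tumor spheroids. The labels do not say whether libraries came from separate cultures, so p-values measure the spread between these libraries, which may be technical.

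Epithelial cells are held together by E-cadherin (Cdh1) and carry the adhesion molecule EpCAM on their surface. During epithelial-mesenchymal transition (EMT), transcription factors of the Snail, Zeb and Twist families and Prrx1 are switched on, E-cadherin is repressed, and vimentin filaments and often N-cadherin (Cdh2) take over. Mixed and partial states are common in mammary tumors, and several of these factors have been studied in metastatic dormancy.

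Expression is given as TPM, the share of a transcript among all transcripts scaled to a fixed total, which corrects for transcript length, so that levels can be compared between genes. TPM values carry no read depth, which is therefore unknown. The rGST libraries each had 12390 to 12449 genes at 1 TPM or more, and the rSLURP1 libraries 11906 to 11981. A gene was tested with limma on log2(TPM + 1) where 3 or more libraries reached 1 TPM, which 12301 genes did, and for low genes this scale makes a fold change look smaller than it is. Of the 10 genes, 6 passed this filter, each of them in all 6 libraries. The median log2 fold change of all tested genes was -0.33, and it was -0.0012 after median-ratio scaling, 0.020 after quantile normalization and 0.030 once fold changes were corrected for length and GC. The change of each of the 6 tested genes is therefore also given with the median of all genes subtracted.

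**Figure D1:**
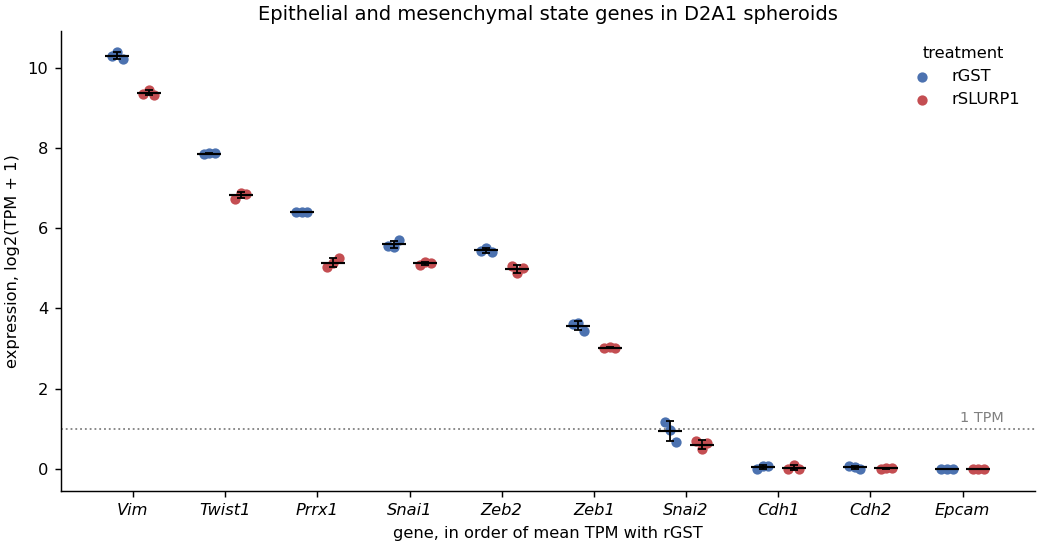
Expression of the 10 genes as log2(TPM + 1), with 1 point per library, the mean (horizontal line) and the SD (bar, n = 3), rGST in blue and rSLURP1 in red. The 6 tested genes lie above 1 TPM in every library and are lower in all 3 rSLURP1 libraries than in all 3 rGST libraries, whereas Cdh1, Cdh2 and Epcam lie at the floor.

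The epithelial members Epcam and Cdh1, and Cdh2 of the mesenchymal side, were not detected at a level that allows a comparison. Epcam (ENSMUSG00000045394.8; GRCm38 chromosome 17, 87635979 to 87651129, plus strand), which encodes the epithelial cell adhesion molecule, was listed at 0 in all 6 libraries. Cdh1 (ENSMUSG00000000303.12; chromosome 8, 106603351 to 106670246, plus strand) was listed at 0, 0.06 and 0.06 TPM with rGST and at 0, 0.07 and 0 TPM with rSLURP1. The groups overlapped, and every library lay far under the 1 TPM used for testing. Cdh2 (ENSMUSG00000024304.14; chromosome 18, 16588877 to 16809246, minus strand), which encodes N-cadherin, was equally low, with 0.05, 0.04 and 0 TPM with rGST and 0, 0.01 and 0.01 TPM with rSLURP1. 

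Neither cadherin could thus be compared between treatments. The log2 ratio of Cdh2 to Cdh1, computed on log2(TPM + 1), lay between -0.084 and 0.070 over the rGST libraries and between -0.083 and 0.014 over the rSLURP1 libraries. Since an exact 0 can be a failed estimate, 16 genes used by every cell were looked up, and none of them was listed at 0 in any library (lowest value 26.79 TPM). All 16 are well expressed, so they cannot show whether the 0 of Epcam was a failed estimate.

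Snail and Zeb factors bind E-boxes with the letters CACCTG, or CAGGTG on the other strand, and Cdh1 is their best-known target. Sequences of the 250 bases before the transcription start were given by RefSeq (GRCm38.p6) for 6 of the 10 genes, and those of Cdh1, Cdh2, Zeb1 and Snai2 are not shown here. The promoters of Epcam and Snai1 are shown because they were the 2 that held the motif, and that of Twist1 because it fell strongly and held none. Sequences run 5′ to 3′ on the strand of the gene, and capitals mark CACCTG and CAGGTG.
Epcam, chr17:87635729-87635978: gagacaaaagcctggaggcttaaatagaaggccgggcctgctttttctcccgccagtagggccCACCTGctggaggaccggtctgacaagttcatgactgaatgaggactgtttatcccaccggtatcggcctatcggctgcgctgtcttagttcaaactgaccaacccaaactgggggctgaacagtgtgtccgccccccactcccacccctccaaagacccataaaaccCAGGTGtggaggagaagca
Snai1, chr2:167537945-167538194: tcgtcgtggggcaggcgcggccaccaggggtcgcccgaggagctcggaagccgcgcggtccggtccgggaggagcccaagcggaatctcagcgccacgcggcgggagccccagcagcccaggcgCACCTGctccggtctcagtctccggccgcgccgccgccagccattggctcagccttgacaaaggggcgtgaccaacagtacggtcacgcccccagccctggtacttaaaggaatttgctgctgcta
Twist1, chr12:33957421-33957670: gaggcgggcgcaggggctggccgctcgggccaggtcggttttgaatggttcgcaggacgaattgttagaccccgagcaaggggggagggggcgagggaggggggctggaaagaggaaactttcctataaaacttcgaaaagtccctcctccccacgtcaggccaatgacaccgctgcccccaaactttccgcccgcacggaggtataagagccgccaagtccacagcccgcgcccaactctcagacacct
In Epcam the motif was found at -187 to -182 and at -19 to -14 from the start, and in Snai1 at -126 to -121. It was found in none of the windows of Vim, Zeb2, Twist1 and Prrx1. Of all 32851 RefSeq promoter windows of this length, 17.2% held at least 1 match and 2.06% held at least 2. The wider E-box CANNTG, which includes both motifs, was in 66.2% of all windows and likewise in none of these 4 genes. A match describes these letters only and was not tested for binding.

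Vim (ENSMUSG00000026728.9; chromosome 2, 13573927 to 13582826, plus strand), the intermediate filament protein of mesenchymal cells, was by far the most abundant of the 10 genes. It had 1252.69, 1340.28 and 1183.80 TPM with rGST and 654.74, 698.53 and 640.27 TPM with rSLURP1. The groups did not overlap, and the rSLURP1 mean was 52.8% of the rGST mean (1259 ± 78.4 against 664.5 ± 30.3 TPM, SD, n = 3 each). The log2 fold change was -0.92 (standard error 0.0550, 95% confidence interval -1.05 to -0.79, adjusted p = 9.52e-06 in limma). With the median of all genes subtracted it was -0.59. Only 8.96% of the tested genes had a lower log2 fold change than Vim. Its mean TPM was above that of 98.8% of the tested genes.

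Twist1 (ENSMUSG00000035799.6; chromosome 12, 33957671 to 33959829, plus strand), a basic helix-loop-helix factor that drives EMT in mammary tumor models, was the most abundant of the transcription factors on the list. Its levels were 228.47, 231.97 and 234.59 TPM with rGST and 105.65, 117.53 and 114.35 TPM with rSLURP1. The groups did not overlap, and the rSLURP1 mean was 48.6% of the rGST mean. Twist1 fell by 1.04 on the log2 scale (standard error 0.0472, 95% confidence interval -1.15 to -0.93, adjusted p = 2.88e-06 in limma), and with the median of all genes subtracted the change was -0.71.

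Prrx1 (ENSMUSG00000026586.16; chromosome 1, 163245119 to 163313710, minus strand), a homeobox factor of mesenchymal cells that can act together with Twist1, had the largest fall of the 6 tested genes in TPM as deposited. It had 83.10, 84.29 and 83.47 TPM with rGST and 31.71, 33.84 and 37.23 TPM with rSLURP1. The rGST libraries lay within a narrow range, and the rSLURP1 mean was 41.0% of theirs. The log2 fold change was -1.27 (standard error 0.0625, 95% confidence interval -1.41 to -1.12, adjusted p = 3.93e-06 in limma), and 4.05% of the tested genes had a lower one. Subtracting the median of all genes left -0.94.

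Snai1 and Snai2 are zinc finger repressors of E-cadherin, Snail and Slug. Snai1 (ENSMUSG00000042821.7; chromosome 2, 167538195 to 167542814, plus strand) had 46.15, 44.94 and 51.02 TPM with rGST and 33.16, 34.84 and 33.80 TPM with rSLURP1. The groups did not overlap as deposited. Its log2 fold change was -0.47 (standard error 0.0606, 95% confidence interval -0.61 to -0.33, adjusted p = 0.000353 in limma), but -0.14 with the median of all genes subtracted. Median-ratio scaling gave -0.12 (95% confidence interval -0.25 to 0.010, adjusted p = 0.110 in limma). Snai2 (ENSMUSG00000022676.7; chromosome 16, 14705852 to 14709385, plus strand) had 1.25, 0.97 and 0.59 TPM with rGST and 0.61, 0.40 and 0.57 TPM with rSLURP1. It reached 1 TPM in 1 library only, did not pass the filter, and its groups overlapped. Without the filter its log2 fold change was -0.33 (adjusted p = 0.159 in limma, 95% confidence interval -0.70 to 0.036), and it was -0.22 without rGST replicate 1. Snai1 exceeded Snai2 in every library, with a log2 ratio on log2(TPM + 1) of 4.39 to 5.03 with rGST and 4.41 to 4.68 with rSLURP1.

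Zeb1 and Zeb2 are zinc finger and homeodomain repressors that act on the same E-boxes. Zeb2 (ENSMUSG00000026872.17; chromosome 2, 44983632 to 45117395, minus strand) had 42.02, 44.53 and 41.16 TPM with rGST and 32.15, 28.35 and 31.32 TPM with rSLURP1. Zeb1 (ENSMUSG00000024238.14; chromosome 18, 5591860 to 5775467, plus strand) had 11.33, 11.46 and 9.87 TPM with rGST and 7.03, 7.20 and 7.11 TPM with rSLURP1. As deposited, every rSLURP1 library lay below every rGST library for both genes. The log2 fold change was -0.46 for Zeb2 (standard error 0.0640, 95% confidence interval -0.61 to -0.31, adjusted p = 0.000487 in limma) and -0.55 for Zeb1 (standard error 0.0852, 95% confidence interval -0.75 to -0.35, adjusted p = 0.000883 in limma). With the median of all genes subtracted these were -0.14 and -0.22. Median-ratio scaling gave -0.12 for Zeb2 (adjusted p = 0.201 in limma) and -0.23 for Zeb1 (adjusted p = 0.0529 in limma). The ratio of Zeb1 to Zeb2 lay between -1.96 and -1.80 on the log2(TPM + 1) scale with rGST and between -2.05 and -1.84 with rSLURP1, and the groups overlapped. Zeb2os, an annotated antisense gene inside Zeb2, had medians of 10.78 TPM with rGST and 4.65 TPM with rSLURP1. Strand-specific counting is not stated in the sources used here, so reads of Zeb2 and Zeb2os may not be told apart.

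As deposited, 6 of the 6 tested genes were lower and 0 higher, where 58.5% of all tested genes were called lower and 8.66% higher at an adjusted p of 0.05 or less. In all 6 the rSLURP1 libraries lay below the rGST libraries, as they did in 61.7% of all tested genes, and 9.75% of them had all rSLURP1 libraries above. The direction of these genes was thus that of most genes. At a fold change of at least 2, the threshold of the study's methods, Twist1 and Prrx1 were called lower, against 7.06% of all tested genes lower and 1.15% higher. The median log2 fold change of the 6 genes was -0.73, beside -0.33 for all tested genes.

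The 6 genes separated into those whose fall held under every scaling and those whose fall did not. With median-ratio scaling, Vim, Twist1 and Prrx1 were lower, with log2 fold changes of -0.57, -0.68 and -0.92 (adjusted p = 8.05e-05, 9.82e-06 and 2.44e-05 in limma). In this scaling 25.2% of all tested genes were called lower and 26.0% higher. Quantile normalization gave -1.02, -0.82 and -0.95 for the same 3 genes, with 23.6% of all tested genes called lower and 25.3% higher. After the length and GC correction they were -0.56, -0.80 and -0.86, with 21.9% of the genes called lower and 27.0% higher. At 2-fold or more, no member was called with median-ratio scaling, where 3.76% of all tested genes were lower and 2.49% higher. Vim alone was called at that size after quantile normalization, where 3.38% were lower and 2.55% higher, and no member was after the length and GC correction, where 3.35% were lower and 2.20% higher. Snai1 was called in the length and GC correction alone among these 3 scalings (-0.23, adjusted p = 0.00877 in limma). Zeb1 and Zeb2 were called in none of the 3. Their 95% confidence intervals with median-ratio scaling were -0.43 to -0.034 for Zeb1 and -0.29 to 0.048 for Zeb2. Which scaling is closest to the RNA content of the cells was not tested.

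**Figure D2:**
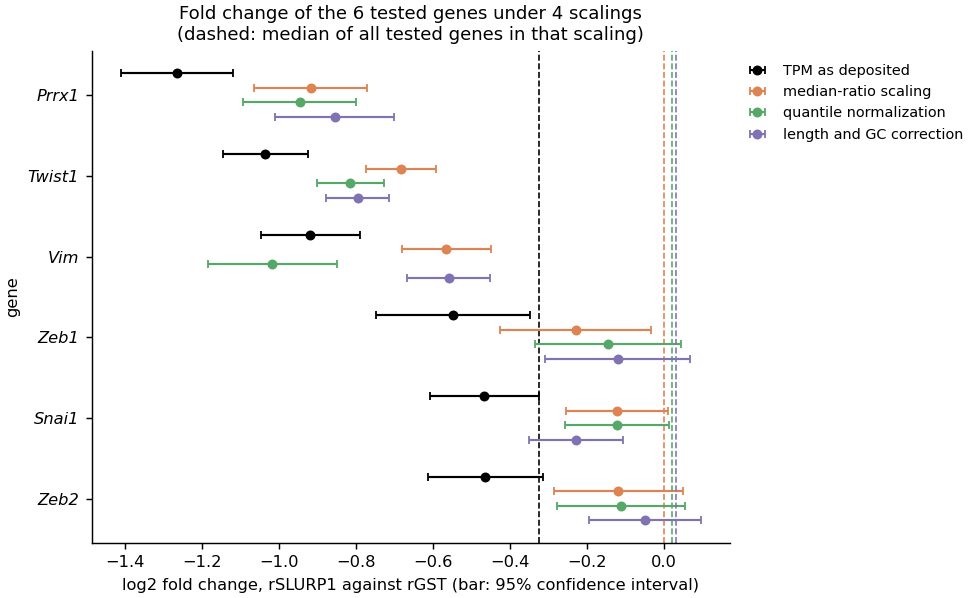
Log2 fold change of the 6 tested genes, rSLURP1 against rGST, with 95% confidence intervals from limma, for TPM as deposited and 3 other scalings, and dashed lines at the median of all tested genes in each. Prrx1, Twist1 and Vim lie left of every dashed line with their whole interval, and Zeb2 lies nearest to the line of its own scaling after the length and GC correction (-0.050 against 0.030).

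By group means the levels had the same order in both treatments, but the distance between Prrx1 and Snai1 closed. With rGST the order was Vim, Twist1, Prrx1, Snai1, Zeb2, Zeb1 and Snai2, with no overlap between neighbours, although the highest Zeb2 library (44.53 TPM) lay just under the lowest Snai1 library (44.94 TPM). With rSLURP1 the ranges of Prrx1 and Snai1 overlapped, and Snai1 was above Prrx1 in replicates 1 and 2. The log2 ratio of Prrx1 to Snai1, a pair chosen after the values were seen, was 0.83, 0.89 and 0.70 with rGST and -0.063, -0.041 and 0.14 with rSLURP1. A ratio within a library does not depend on a scaling factor, except through the pseudocount of 1. The mean difference of -0.80 between treatments restates the unequal log2 fold changes of Prrx1 (-1.27) and Snai1 (-0.47) and is no separate support. It was -0.63 after the length and GC correction.

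Other genes of the epithelial and mesenchymal programs were read from fixed lists. Of 32 epithelial junction genes, 16 were under 1 TPM in all 6 libraries, among them Cldn3, Cldn7, Dsg2 and Dsc2, which were listed at 0 in all of them. Of the 15 that were tested, 4 were higher, 8 lower and 3 not called, where 8.66% of all tested genes were higher and 58.5% lower. Their median log2 fold change was -0.33, as for all genes. The highest levels were those of the catenins that link cadherins to actin. Ctnnb1 (beta-catenin) had 552.8 ± 27.3 TPM with rGST and 545.3 ± 24.2 TPM with rSLURP1, a log2 fold change of -0.019 (adjusted p = 0.747 in limma) that turned to 0.33 with median-ratio scaling. Ctnna1 (alpha-catenin) fell by 0.25 as deposited and turned to 0.10 with median-ratio scaling.

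The largest falls on this list were those of Tjp1, Jup and Cldn12. Tjp1 (ZO-1, a tight junction scaffold) fell from 101.8 ± 5.56 to 31.3 ± 1.61 TPM, and Jup (plakoglobin) from means of 67.1 to 23.2 TPM (n = 3 each). Their log2 fold changes were -1.67 and -1.49 as deposited and -1.32 and -1.14 with median-ratio scaling. Cldn12, a claudin, had a log2 fold change of -0.82. F11r (JAM-A, an adhesion molecule of tight junctions) rose from 29.9 ± 2.78 to 47.2 ± 1.05 TPM, and Nectin2 had a log2 fold change of 0.34. Pkp2 (plakophilin 2) had 0.31 (adjusted p = 0.0259 in limma), a call that was lost without rGST replicate 3 (adjusted p = 0.0684), rSLURP1 replicate 1 (adjusted p = 0.0546) or rSLURP1 replicate 2 (adjusted p = 0.0781), and without a filter (adjusted p = 0.0671).

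Of 16 genes of the epithelial surface and splicing list, 10 were under 1 TPM throughout, and Esrp1, an epithelial splicing factor, Ap1m2, Mal2 and Elf5 were among those listed at 0. Tested were 5, with 1 higher, 1 lower and 3 not called. Cd24a, a surface protein that is used to sort mammary epithelial cells, had 62.14, 61.43 and 65.55 TPM with rGST and 137.81, 147.61 and 142.29 TPM with rSLURP1. It was higher in all 3 rSLURP1 libraries, with a log2 fold change of 1.16 as deposited (adjusted p = 1.53e-06 in limma), and median-ratio scaling gave 1.52. Higher calls made up 8.66% and lower calls 58.5% of all tested genes as deposited. Spint2, a protease inhibitor of epithelia, had a log2 fold change of -0.46, which was -0.11 with median-ratio scaling (adjusted p = 0.148 in limma).

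Factors known to hold EMT factors back were mostly low. Of 10 such genes, 8 were under 1 TPM in all libraries, Grhl2 and Ovol2 included, and 1 was listed at 0 in all. Both tested genes were lower as deposited, as 58.5% of all tested genes were, Gata3 from 3.72 ± 0.649 to 1.86 ± 0.428 TPM and Trps1 from 33.7 ± 1.36 to 24.5 ± 0.535 TPM (SD, n = 3 each). With median-ratio scaling the log2 fold change of Trps1 was -0.098 (adjusted p = 0.182 in limma) in place of -0.44. Gata3 was no longer called after quantile normalization (-0.35, adjusted p = 0.126 in limma) or the length and GC correction (-0.34, adjusted p = 0.118 in limma).

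Among 19 other EMT factors and their cofactors, 12 were tested, 9 were lower, 1 was higher and 2 were not called, where 58.5% of all tested genes were lower and 8.66% higher. The median log2 fold change was -0.54. With median-ratio scaling it was -0.21, with 5 lower and 2 higher, where 25.2% of all tested genes were lower and 26.0% higher. Prrx2, the paralog of Prrx1, fell from 83.7 ± 4.71 to 19.2 ± 1.49 TPM, a log2 fold change of -2.07 (adjusted p = 7.80e-07 in limma) that was larger than that of Prrx1. Sox9, a factor of progenitor cells, had a log2 fold change of -1.41, and Foxc1, a forkhead factor, fell from 40.1 ± 2.37 to 19.5 ± 1.41 TPM. The E-proteins Tcf4 and Tcf12, partners with which Twist1 can form dimers, had log2 fold changes of -0.94 and -0.73, and the third E-protein of the list, Tcf3, had -0.25, which was 0.0997 with median-ratio scaling (adjusted p = 0.189 in limma). These 3 were named after their values were seen. Ctbp1 and Sox4, the most abundant of this list, had log2 fold changes of -0.42 and -0.41, and Zfp281, the gene called higher, had 0.21. Ctbp1 and Sox4 turned to 0.012 and 0.061 with the length and GC correction.

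On the list of 30 mesenchymal genes, 15 were tested, with 11 lower, 2 higher and 2 not called. As deposited, 58.5% of all tested genes were lower and 8.66% higher. Of the lower genes, Col1a1 and Acta2 passed the filter through the rGST libraries alone, so they had to differ. With 1 TPM required in all 6 libraries, which leaves these 2 out, 9 were lower and 2 higher. The median log2 fold change, with Col1a1 and Acta2 included, was -0.98 as deposited and -0.63 with median-ratio scaling. In that scaling 9 were lower and 3 higher, where 25.2% of all tested genes were lower and 26.0% higher. Postn (periostin) fell from 43.4 ± 4.25 to 1.99 ± 0.523 TPM, and Pdgfrb (a PDGF receptor) from 107.8 ± 5.01 to 19.6 ± 1.60 TPM. Col1a1, a chain of type I collagen, had 8.78 ± 1.15 TPM with rGST and 0.327 ± 0.0833 TPM with rSLURP1. Fn1 (fibronectin), the most abundant gene of this list, had a log2 fold change of -0.81, which was -0.46 with median-ratio scaling, -0.28 after the length and GC correction and -1.06 after quantile normalization. S100a4, the next in abundance, had one of -0.052 (adjusted p = 0.417 in limma) whose direction depended on the scaling. S100a4 was at 0.30 with median-ratio scaling (adjusted p = 0.00293 in limma) and at -0.34 after quantile normalization (adjusted p = 0.000260 in limma). Cd44, the hyaluronan receptor, rose from 40.9 ± 1.84 to 53.3 ± 3.39 TPM. In all libraries 15 genes of this list were under 1 TPM, including Cdh11, Lox and Ncam1.

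**Figure D3:**
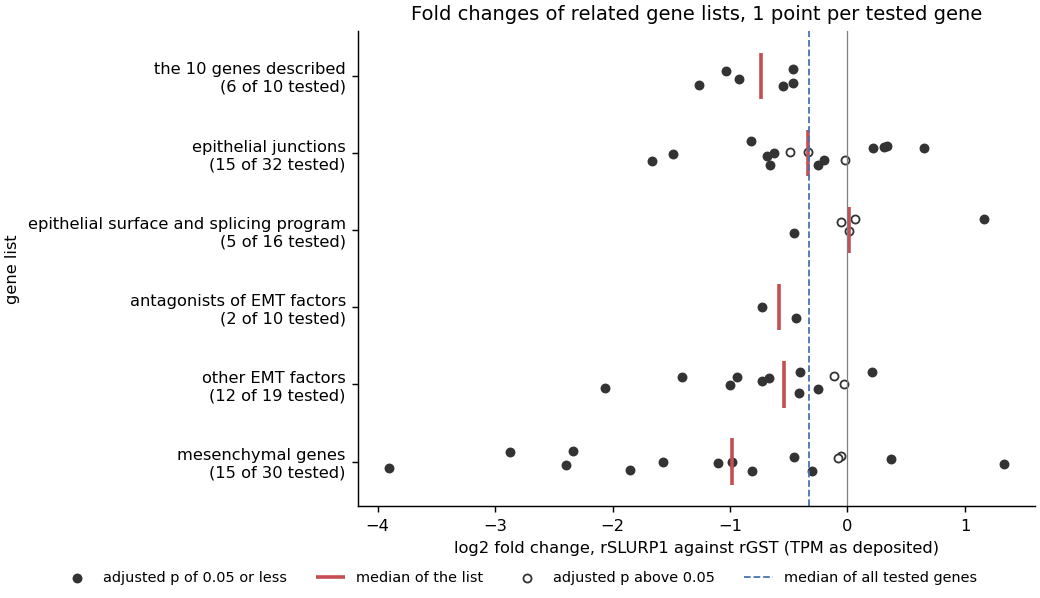
Log2 fold change (TPM as deposited) of each tested gene of the 10 genes described and of 5 related lists, filled where the adjusted p in limma was 0.05 or less, with the median of each list in red and the median of all tested genes as a dashed line. The median of the mesenchymal list (-0.98) lies furthest to the left, and it includes Col1a1 and Acta2, tested through the rGST libraries alone. That of the junction list (-0.33) lies on the line of all genes.

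The labelled cell type was checked against defining markers. Of 8 luminal mammary markers, Krt18, a simple epithelial keratin, was the one at a high level, and the summed TPM of the list was 194.1 to 201.3 with rGST and 197.8 to 200.7 with rSLURP1. Krt8, its usual partner, did not exceed 1.66 TPM, and Elf5, Prlr, Esr1 and Cldn3 were listed at 0. Krt18 did not pass the test as deposited (0.015), but it was called higher in the 3 other scalings, at 0.37 (median-ratio), 0.23 (quantile) and 0.25 (length and GC). The basal keratins Krt5 and Krt14 were also listed at 0. The summed level of the 7 basal markers was 6.82 to 9.15 TPM with rGST and 2.24 to 2.87 TPM with rSLURP1, carried by Trp63 (log2 fold change -0.78) and Acta2 (-1.57, tested through the rGST libraries alone), and its part in the changes of the 6 genes was not tested. Most defining markers of mammary epithelium were thus low or at 0, with Krt18 as the exception. The markers of leukocytes and endothelium reached summed levels of at most 0.37 and 1.33 TPM in any library.

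Of 10 fibroblast markers, 8 were tested. Col1a1 and Dpt passed the filter through the rGST libraries alone, so they had to differ. The other 6 were also called lower with rSLURP1 as deposited, as 58.5% of all tested genes were. The summed level of the 10 markers was 1181 to 1329 TPM with rGST (median 1239) and 87.87 to 100.04 TPM with rSLURP1 (median 94.1). Log2 fold changes of the tested markers ran from -6.55 (Lum) to -0.69 (Pi16) as deposited. With median-ratio scaling Lum had -6.29 and Pi16 -0.36. Of the 10 markers, 5 are also on the mesenchymal list. None was at 0 in all libraries, and Thy1 and Col3a1 stayed under 1 TPM. These markers moved in the same direction as Vim, Twist1 and Prrx1, and their part in those changes was not tested. In bulk RNA, fewer cells of one type and less RNA of a gene per cell cannot be told apart.

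**Figure D4:**
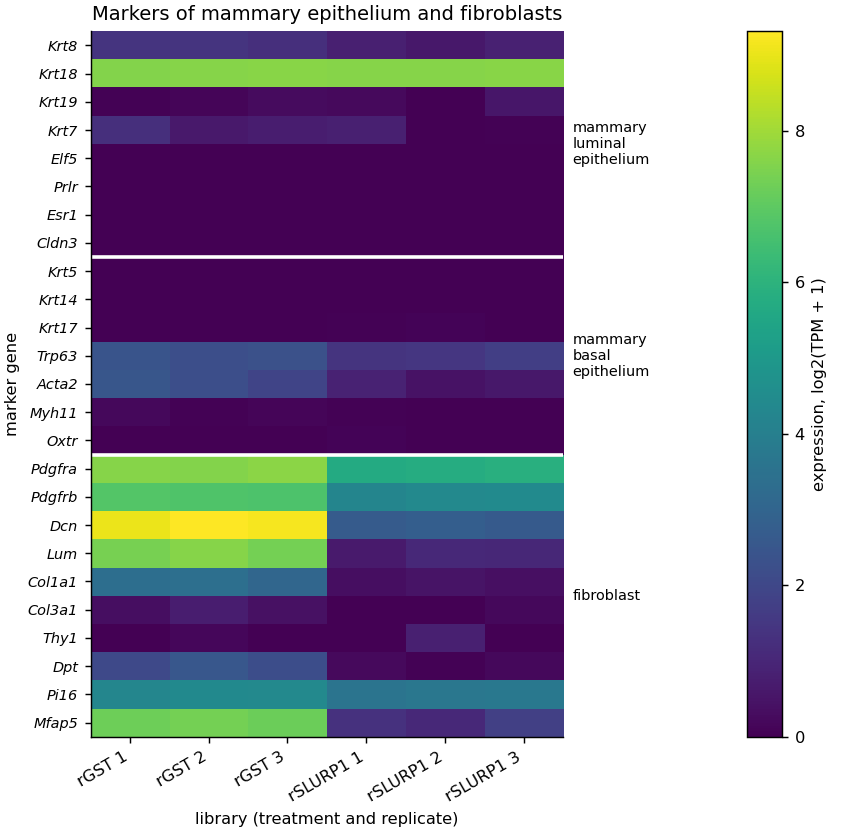
Heat map of log2(TPM + 1) for markers of luminal and basal mammary epithelium and of fibroblasts in the 6 libraries. Krt18 is high in all libraries, whereas the fibroblast markers Dcn, Lum and Mfap5 are high in the 3 rGST libraries and low in the 3 rSLURP1 libraries.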

How the data were processed

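The 6 RNAseq libraries of D2A1 spheroids were grouped by their titles. The authors used Cutadapt for trimming, STAR (2.5.2b) for alignment to mm10 and RSEM (1.3.3 in the submitters' processing notes) for quantification, and deposited TPM with 1 column per library. The study's methods name Smart-seq2 and the labels a TruSeq mRNA kit. Scaling to a fixed total lowers all genes where a few rise. Depth is unknown, so no counting error was computed.

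From the TPM, log2(TPM + 1) was tested with limma (3.58.1, R 4.3.3, eBayes with trend), without a block, with Benjamini-Hochberg adjustment over 12301 genes. With 3 libraries against 3, the exact two-sided permutation test of a single gene gave 0.1, its smallest possible value, for each of the 6 tested members. Positions, lengths and GC content come from GENCODE M21 (GRCm38). Listed genes with renamed symbols (Afdn, Nectin2, Nectin4, Tbxt) were matched by gene identifier. The fit was tested on simulated data with known changes. The members and lists were chosen with earlier results of these data known. Named list genes were, per list, the 2 highest in mean TPM and up to 3 called rises and 3 called falls; exceptions are stated, and some listed genes are not reported here by name. Alternatives were another pseudocount, other filters and scalings (one corrects fold changes for length and GC by loess, span 0.3), removal of mitochondrial genes, a fit with no trend, a replicate block, and leaving out each library.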

Additional observations from a re-analysis of the deposited data

How the results depend on the processing

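The log2 fold changes of Vim, Twist1 and Prrx1 stayed below 0 with an adjusted p of at most 0.000522 in limma in all 17 settings, ranging from -1.02 to -0.56, -1.07 to -0.68 and -1.33 to -0.86. Those of Zeb1, Zeb2 and Snai1 kept their direction but not their call. With median-ratio scaling they were -0.23, -0.12 and -0.12, after quantile normalization -0.15, -0.11 and -0.12. Corrected for length and GC, Zeb1 and Zeb2 were at -0.12 and -0.050, also under the replicate block. The cause was not tested. Members called lower numbered 3 with median-ratio scaling and with quantile normalization, where 25.2% and 23.6% of all tested genes were lower. The adjusted p of Zeb1, Zeb2 and Snai1 reached at most 0.319, 0.600 and 0.119. Leaving out each library in turn gave 6 members lower every time. These fits used TPM as deposited, with the shift of all genes, and called 6605 to 6999 of the 12301 tested genes lower.

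Over all tested genes, higher and lower calls numbered 3198 and 3094 with median-ratio scaling, 3111 and 2905 after quantile normalization, 3320 and 2690 once corrected for length and GC and 3095 and 2468 when the block was added to this, in place of 1065 and 7200 as deposited. Lower calls thus made up 49.2%, 48.3%, 44.8% and 44.4% of calls in place of 87.1%.

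With the length and GC correction (with and without the block), 7 of the 15 tested junction genes were called higher and 5 lower. Of 5 surface and splicing genes 1 was higher and 0 lower, and of 2 antagonists 0 were called. Of 12 other EMT factors 3 were higher and 5 lower. Of 15 mesenchymal genes 9 were lower, and 4 were higher without the block. Over all tested genes, 27.0% were higher and 21.9% lower with this correction without the block. With median-ratio scaling, surface and splicing genes called lower numbered 0, antagonists 1, and other EMT factors 2 higher and 5 lower. In that scaling 26.0% of all tested genes were higher and 25.2% lower. With quantile normalization, surface and splicing genes called higher numbered 2, antagonists lower 0 and other EMT factors higher 2, where 25.3% of all tested genes were higher and 23.6% lower. Without a filter, other EMT factors called higher numbered 2, where 979 of all 23334 genes in that fit were higher. Without rSLURP1 replicate 2, junction genes called higher fell to 2 (range 2 to 4 over the libraries left out), where 906 of all 12301 tested genes were higher.

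The replicate number as a block changed no call of a member and gave 7962 calls in place of 8265. Same-numbered libraries had a mean correlation of deviations of -0.050, and other pairs one of 0.025. No sample correlated best with its own number. With 3 libraries per group this cannot show whether same-numbered libraries shared a culture or a processing step.

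The difference between treatments in the log2 ratio of Vim to Cdh1 moved from -0.90 to -0.72 with a pseudocount of 0.1. Cdh1 did not exceed 0.07 TPM in any library, so this ratio mostly follows Vim and the pseudocount and does not describe Cdh1. The difference for Snai1 to Snai2 moved from -0.14 to 0.21 with that pseudocount, and that for Prrx1 to Snai1 to -0.63 with the length and GC correction. Ratios with Cdh1, Cdh2 or Snai2 could not be computed in these 2 scalings (quantile, length and GC), since these genes were not tested.

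Of the named genes outside the members, Ctnna1 reversed to 0.10 with median-ratio scaling and 0.16 with the length and GC correction, Ctnnb1 to 0.33 (median-ratio scaling), 0.059 (quantile normalization), 0.0074 (mitochondrial genes removed) and 0.39 (length and GC correction), S100a4 to 0.30 with median-ratio scaling, and Ctbp1 and Sox4 to 0.012 and 0.061 after the length and GC correction, the value being the same where the block was added to that correction. Leaving out each library gave -0.061 to 0.0051 for Ctnnb1 and -0.0017 to 0.028 for Krt18, whereas Krt18 was called higher in the 3 other scalings. TPM keeps no depth, so the precision of genes near 1 TPM is not known.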
